A study of Mus musculus with 4 samples.

Results

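Oligodendrocyte lineage and myelin genes were measured in RNA that was bound to tagged ribosomes of the rostral pons, the upper part of the brainstem segment that lies under the cerebellum. The 34 genes were given as a list by symbol, and all 34 had a row among the 31735 gene rows that the 4 libraries share. They were divided by role into 25 genes of mature oligodendrocytes and myelin, 6 genes of oligodendrocyte precursors and 3 transcription factor genes that are active through the whole lineage. The list was drawn up with earlier results of these data known, so its levels are a description.

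All 4 libraries belonged to 1 group. The adult control mice had no treatment and belonged to the line Cbln2-TRAP NIDA172, in which a ribosomal protein, Rpl10a, is fused to EGFP and the line is named for the cerebellin 2 gene. In TRAP, antibodies against EGFP capture tagged ribosomes from homogenized tissue, and the RNA on them is sequenced, so that transcripts from tagged cells should be enriched over those of other cells. Every library was of the immunopurified fraction. RNA of the unpurified tissue was not used here, and the labels do not say whether a library came from 1 animal or from pooled tissue. The series design calls the profiled cells neurons.

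Oligodendrocytes wrap axons in myelin, a stack of lipid-rich membrane, and the rostral pons is crossed by many myelinated tracts. They arise from precursors that carry the growth factor receptor PDGFRA and the proteoglycan NG2 (gene Cspg4). As they mature, these cells switch on the regulator MYRF and then large amounts of myelin protein and lipid enzyme transcripts. Mbp RNA is carried out into the processes and translated at the myelin sheath, so that myelin RNA can lie far from the cell body.

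The libraries held 12731825 to 21140265 counts in gene rows. Levels are given as CPM, counts scaled to a total of 1000000 over the gene rows of a library, and 1 count was worth 0.0473 to 0.0785 CPM. Where a gene had 0 counts, the upper limit that this allows (3 counts) was 0.142 to 0.236 CPM, for counting error only. The row Rn45s, named for the ribosomal RNA precursor, took 24.2% of the gene counts of replicate 3, 9.29% of those of replicate 4 and under 2% of the others, and so lowers the CPM of every other gene in replicate 3. In its description, replicate 4 is marked Rep3 like replicate 3, although the library numbers differ. Groups and replicates follow the titles, and the counts of these libraries differ (for Mbp, 3017 in replicate 3 and 17571 in replicate 4).

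Of the 34 genes, 28 reached 1 CPM in all 4 libraries, against 33.5% of all shared gene rows. The 6 that did not were Mog, Gpr17, Neu4, Opalin, Ppp1r14a and Nkx6-2. Summed over the list, the genes took up 0.239% of gene counts in replicate 1, 0.226% in replicate 2, 0.0743% in replicate 3 and 0.318% in replicate 4. Replicate 3 was thus the lowest, and the lowest of the other libraries was 3.04-fold above it. The 6 genes with a mean of at least 100 CPM were Mbp, Mobp, Enpp2, Tspan2, Cnp and Plekhb1, and they held 60.7% of the summed level on average. In these bulk libraries, fewer cells of a type and less RNA per cell cannot be told apart.

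**Figure D1:**
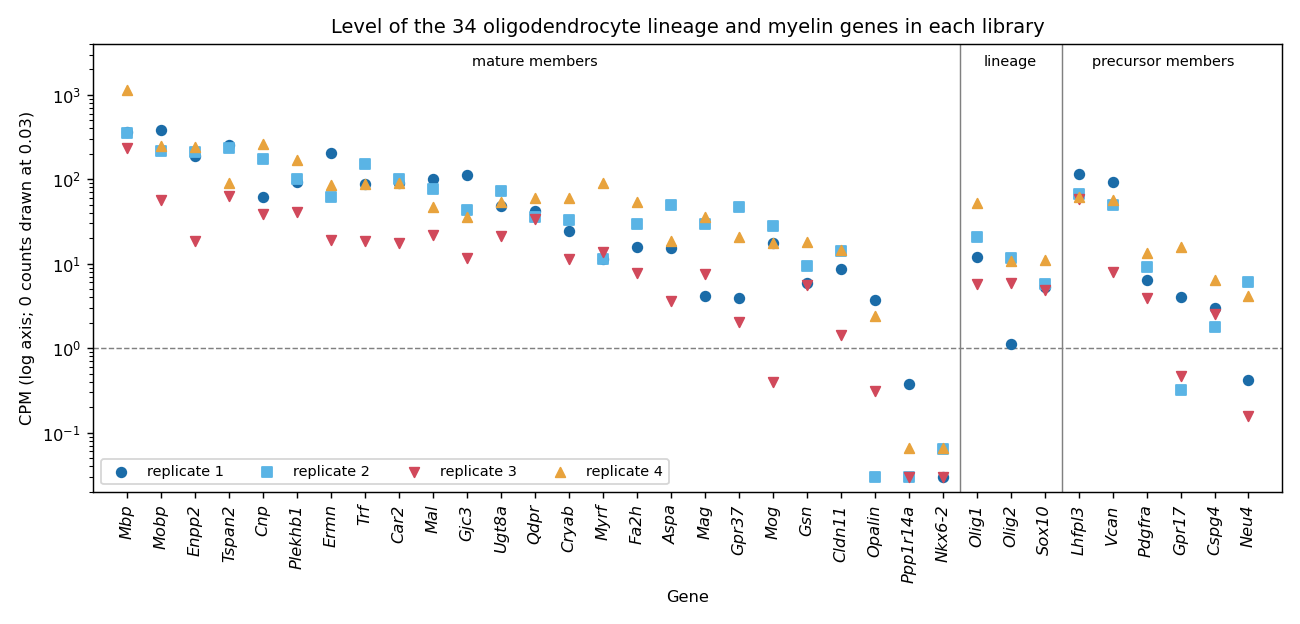
Level of each gene (CPM, log axis) in the 4 libraries, with 1 symbol per library and genes in falling order of their mean within the mature, lineage and precursor groups. The points of replicate 3 are the lowest for 26 of the 32 genes with a mean of at least 1 CPM. Over all 13841 such genes, 30.0% were lowest there. Values of 0 are drawn at 0.03 and the dashed line is 1 CPM.

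The proteins of compact myelin and the inner tongue of the sheath were led by Mbp, which encodes myelin basic protein and holds the cytoplasmic faces of the membrane together. Mbp was at 366, 355, 237 and 1147 CPM in replicates 1 to 4 (526 ± 418, SD, n = 4), so replicate 4 stood far above the other 3. Mobp, a smaller basic protein of compact myelin, was at 383, 216, 56.5 and 249 CPM. Its highest value lay in replicate 1. Cnp, a phosphodiesterase that keeps cytoplasmic channels of the sheath open, was at 62.0, 175, 39.1 and 265 CPM. Replicates 2 and 4 were the high ones for Cnp, and replicate 1 was closer to replicate 3. Mbp alone made up 15.3%, 15.7%, 31.9% and 36.0% of the summed level of the list in replicates 1 to 4, so its share was larger in replicates 3 and 4 than in 1 and 2.

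On the scale of CPM per kb of exon, Mbp averaged 62.2, Cnp 37.2 and Mobp 33.1, and the genes of the outer sheath and of cell contact were lower, with Mog at 9.36, Cldn11 at 5.18, Mag at 4.71 and Opalin at 0.545. Mog, a protein of the outermost myelin surface, was at 17.7, 28.1, 0.393 and 17.6 CPM. Replicate 3 held 5 reads of Mog against 270 to 437 in the others, and its level was 71.5-fold below that of replicate 2. Mag, an adhesion protein of the inner surface that faces the axon, was at 4.12, 29.7, 7.46 and 35.5 CPM. Unlike Mog, Mag was low in replicate 1 as well as in replicate 3. Cldn11, the tight junction claudin of myelin, was at 8.70, 14.0, 1.41 and 14.6 CPM, again with a single low library. Opalin, a membrane protein of mature oligodendrocytes, was close to the limit of detection, at 3.69, 0, 0.314 and 2.42 CPM.

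Among the other membrane and cytoskeletal proteins, Tspan2, Ermn, Mal and Gjc3 were highest in replicate 1. Tspan2, a tetraspanin of early myelin, was at 257, 236, 62.7 and 90.1 CPM (162 ± 99.3, SD, n = 4), and replicates 1 and 2 both lay above replicates 3 and 4. Ermn, the cytoskeletal protein ermin, was at 206, 61.7, 19.1 and 85.9 CPM. Mal, a proteolipid of membrane trafficking, was at 101, 75.9, 22.1 and 47.1 CPM, and Gjc3, the connexin 29 gene, was at 114, 43.5, 11.6 and 35.3. For each of these 4 genes replicate 3 was the lowest. Plekhb1, which has a pleckstrin homology domain and is also known from neurons, was at 93.3, 102, 41.1 and 167 CPM, and was highest in replicate 4. Ppp1r14a, an inhibitor of a protein phosphatase, had 8, 0, 0 and 1 reads, which places it at or under the limit of a count of 0 in 3 of 4 libraries.

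The enzymes of myelin lipid and metabolism followed the same low in replicate 3, with 1 exception. Enpp2, or autotaxin, which makes lysophosphatidic acid and is also strong in choroid plexus, was at 188, 208, 18.5 and 241 CPM. Car2, carbonic anhydrase 2, was at 89.8, 102, 17.6 and 90.2 CPM. Both genes were level in replicates 1, 2 and 4 and low in replicate 3 alone. Ugt8a and Fa2h make the galactolipids of myelin and their hydroxylated fatty acids. Ugt8a was at 47.8, 72.8, 21 and 54.2 CPM and Fa2h at 15.9, 29.7, 7.78 and 53.9. Aspa, which splits the axonal metabolite N-acetylaspartate, was at 15.3, 49.3, 3.61 and 18.6 CPM. The exception was Qdpr, which regenerates tetrahydrobiopterin and is not restricted to oligodendrocytes. It was at 42.1, 35.7, 34.2 and 59.9 CPM (43.0 ± 11.8, SD, n = 4), so that replicate 3 was close to replicate 2.

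Among the remaining mature genes, Trf, which encodes the iron carrier transferrin, was at 88.6, 151, 18.4 and 88.7 CPM. In the annotation 63.5% of its exon bases are shared with another gene model on the same strand, so its count is uncertain. Cryab, a small heat shock protein that astrocytes and other cells make too, was at 24.6, 32.7, 11.2 and 60.4 CPM. Gpr37, a receptor linked to the timing of myelination, was at 3.93, 47.2, 2.04 and 20.8 CPM. Gpr37 was thus low in replicate 1 as well as in replicate 3. Gsn, the actin-severing protein gelsolin, was at 5.87, 9.51, 5.66 and 18 CPM, and replicate 1 was as low as replicate 3.

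The transcription regulators differed among themselves in which library was low. Myrf, the membrane-bound factor that starts the myelin programme, was at 11.4, 11.5, 13.7 and 89.5 CPM. Replicate 3 was not low for Myrf, and replicate 4 was the only high one. Sox10, which acts above Myrf in the lineage, was at 5.25, 5.79, 4.95 and 11.0 CPM, with the same single high library and a narrow range below it. Olig1 was at 11.9, 20.5, 5.81 and 52.2 CPM, and Olig2, its neighbour on chromosome 16 and the earlier factor of the lineage, at 1.14, 11.6, 5.89 and 10.8. Olig1 was lowest in replicate 3, as most structural genes were, and Olig2 in replicate 1. Nkx6-2, a homeobox regulator of late maturation, had 0, 1, 0 and 1 reads.

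The MYRF factor is known to bind short motifs, written here as CTGGCAC and CTGGTAC, near myelin genes. RefSeq promoter sequences (GRCm38.p6, 250 bases before to 50 after each start) were matched by symbol for 24 of the 34 genes, in 30 promoters. Of these, 5 promoters held such a motif on either strand, 16.7%, beside 7.10% of 32851 promoters of the same length. They belong to 4 mature genes, and 2 of them are overlapping promoters of Mag. For motifs of SOX proteins (ACAAAG and ACAATG) the shares were 30.0% and 28.6%, and for E-boxes bound by OLIG2 (CATATG and CAGCTG) 23.3% and 19.8%. A match gives letters only and no binding was measured. Cnp, Mag and Mog, the 3 genes with the motif before the start, were at least 2-fold below the median of the other libraries in replicate 3. So were 24 of the 32 genes of the list with a mean of at least 1 CPM, so this does not set the 3 apart. The 250 bases before the start are shown for these 3 genes. They are written 5′ to 3′ on the strand of the gene, with the motif or its reverse complement in capitals.
Cnp, chr11:100574689-100574938, plus strand: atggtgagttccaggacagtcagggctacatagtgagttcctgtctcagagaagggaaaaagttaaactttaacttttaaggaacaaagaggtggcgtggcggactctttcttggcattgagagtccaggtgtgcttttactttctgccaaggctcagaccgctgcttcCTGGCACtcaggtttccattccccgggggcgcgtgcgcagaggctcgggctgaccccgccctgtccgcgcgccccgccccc
Mag, chr7:30914923-30915172, minus strand: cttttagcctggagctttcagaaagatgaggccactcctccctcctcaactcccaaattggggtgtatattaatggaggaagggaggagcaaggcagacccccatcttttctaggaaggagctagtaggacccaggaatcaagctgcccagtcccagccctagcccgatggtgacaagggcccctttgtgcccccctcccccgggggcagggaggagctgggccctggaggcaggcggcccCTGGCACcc
Mog, chr17:37023399-37023648, minus strand: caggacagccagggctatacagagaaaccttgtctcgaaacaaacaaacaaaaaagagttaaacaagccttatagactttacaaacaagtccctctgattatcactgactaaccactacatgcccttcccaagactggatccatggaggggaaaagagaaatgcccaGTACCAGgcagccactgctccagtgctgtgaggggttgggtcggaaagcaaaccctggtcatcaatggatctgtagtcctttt

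The first base of the matched letters lies at position -81 from the start of Cnp, -9 from the more upstream of the matching starts of Mag and -83 from that of Mog. In Opalin the match lies 37 bases after the start. Cnp and Mag carry CTGGCAC on the strand of the gene, whereas Mog carries CTGGTAC and Opalin CTGGCAC on the other strand.

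Among the precursor genes, Lhfpl3 averaged 23.7 CPM per kb of exon and Vcan 3.57, whereas Gpr17 (0.997), Pdgfra (0.817), Neu4 (0.582) and Cspg4 (0.289) were below 1 CPM per kb. Lhfpl3, a tetraspan membrane protein gene, was at 117, 67.6, 59.1 and 61.9 CPM (76.3 ± 27.1, SD, n = 4). Replicate 3 was at the level of replicates 2 and 4, and replicate 1 was high. Vcan, the matrix proteoglycan versican, was at 93.0, 49.4, 8.09 and 56.2 CPM and was low in replicate 3. Neurons are known to express both genes, so neither is a marker of precursors alone. In the annotation 17.6% of the exon bases of Lhfpl3 lie opposite another gene, and the strand setting of the counting is not given in the sources used here.

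The genes that define precursors were thus scarce. Pdgfra was at 6.43, 9.06, 3.93 and 13.3 CPM and Cspg4 at 3.03, 1.80, 2.51 and 6.46. Both are also made by cells of vessels and meninges, and the meningeal gene Dcn stood close to Pdgfra per kb of exon (log2 ratio of Pdgfra to Dcn -0.28 ± 0.48, SD, n = 4). Gpr17, a receptor of cells that are about to differentiate, was at 4.07, 0.321, 0.471 and 15.9 CPM. Replicates 1 and 4 were thus high for Gpr17, and replicates 2 and 3 held 5 and 6 reads. Neu4, a sialidase, was at 0.426, 6.04, 0.157 and 4.18 CPM, with replicates 2 and 4 high in place of 1 and 4. No pair of these 4 genes ordered the libraries alike except Cspg4 and Gpr17.

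Mature genes were compared with precursor genes within each library, on the log2 scale of CPM per kb of union exon with 0.5 added. The median of the 25 mature genes was 4.10, 4.09, 1.89 and 4.12 in replicates 1 to 4, and that of the 6 precursor genes 0.28, 0.67, -0.33 and 1.35. For comparison, the 10147 genes with a length that every library held at 1 CPM or above had a median of 2.77, 2.74, 2.64 and 2.86. The mature genes were therefore above that median in replicates 1, 2 and 4 and below it in replicate 3, and the precursor genes were below it in all 4. That median leaves out scarce genes, whereas the 2 groups keep theirs. Over all shared gene rows with a length the median was -0.14, -0.34, -0.09 and 0.16. The precursor genes were below this lower median in replicate 3 only. The difference between mature and precursor medians was 3.83, 3.42, 2.22 and 2.77 (3.06 ± 0.71, SD, n = 4), or 8.33-fold on average, in favour of the mature genes in 4 of 4 libraries. No p is given for this score, since the list was chosen with results known. With the mean over genes in place of the median the difference was 2.0, and with CPM not divided by length it was 2.34.

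The groups overlapped in every library. Of the 25 mature genes, 22, 22, 21 and 22 lay above the precursor median in replicates 1 to 4. Only 6, 10, 2 and 10 lay above the highest precursor gene, which was Lhfpl3 in each library, and Nkx6-2, Ppp1r14a and Opalin were among the mature genes below the lowest precursor gene in at least 1 library.

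**Figure D2:**
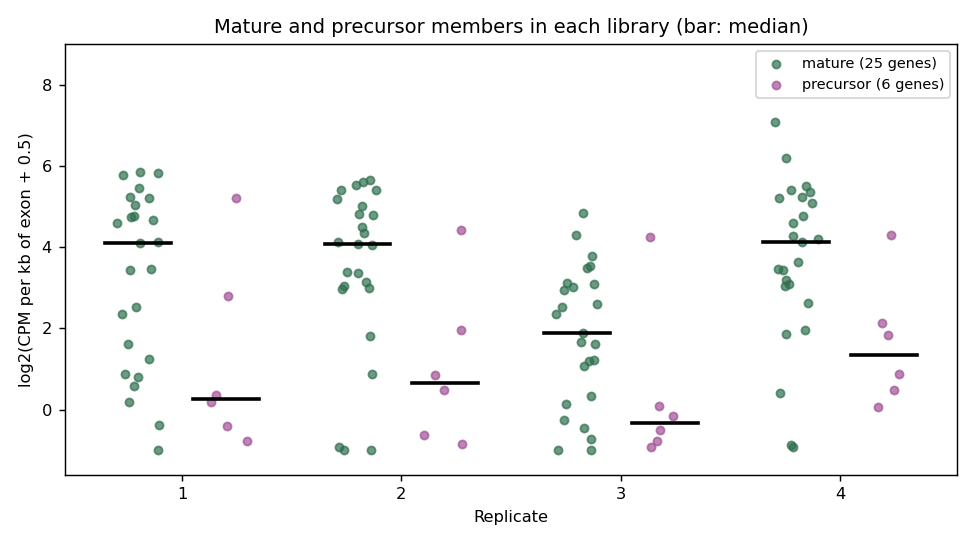
Levels per kb of exon (log2 of CPM per kb plus 0.5) of the 25 mature and 6 precursor genes in each library, with 1 point per gene and the median as a bar. The mature median is near 4 in replicates 1, 2 and 4 and 1.89 in replicate 3, and the topmost precursor point is Lhfpl3.

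Ratios of single genes showed which differences held in each library. The log2 ratio of Mbp to Pdgfra per kb was 5.26, 4.92, 5.0 and 6.22 (5.35 ± 0.60, SD, n = 4), or 40.7-fold. Mbp exceeded the precursor receptor gene in all 4 libraries, replicate 3 included, and by most in replicate 4. For Mog the ratio to Pdgfra was 3.25, 3.60, -0.29 and 2.57, so it held in 3 of 4 libraries only. Mag exceeded Cspg4 in 4 of 4 libraries, but by under 2 SD (log2 ratio 2.36 ± 1.21), and Myrf exceeded Gpr17 in 4 of 4. The size of the latter difference depends on the added value, because Gpr17 in replicates 2 and 3 was at 0.0619 and 0.0907 CPM per kb: the mean log2 ratio was 1.07 with 1 added and 2.19 with 0.1 added, which was under 2 SD. Cnp and Lhfpl3 did not differ beyond the spread (0.31 ± 1.44, above 0 in 2 of 4).

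Mobp exceeded Vcan in 4 of 4 libraries, with log2 ratios of 3.03, 3.03, 3.05 and 3.07. The closeness of these ratios depends on the added 0.5, since Vcan was at only 0.559 CPM per kb in replicate 3, and the mean ratio was 3.28 with 0.1 added and 2.83 with 1 added. Both genes put the libraries in the same order, highest in replicate 1 and lowest in replicate 3, although one is a myelin gene and the other is listed with the precursors. Olig1 exceeded Olig2 in 4 of 4 libraries (log2 ratio 1.54 ± 1.17), but by under 2 SD, and Sox10 did not differ from Olig2 beyond the spread (-0.12 ± 0.97). These ratios were tested by exact permutation of their signs (two-sided), which with 4 libraries has 16 patterns and cannot give a p below 0.125. The pairs that went one way in 4 of 4 libraries reached that value, which is 0.292 after Benjamini-Hochberg adjustment over the 14 pairs in the exact test.

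The low levels of replicate 3 were set against all genes by applying 1 rule to each library in turn. Of the 32 genes with a mean of at least 1 CPM, 24 were at least 2-fold below the median of the other 3 libraries in replicate 3, where 22.8% of 13841 genes were. None was at least 2-fold above it there, against 18.1% of all genes. The 24 comprised 19 of 23 mature genes, 4 of 6 precursor genes and Olig1. The other 8 were Mbp, Qdpr, Gsn, Myrf, Sox10, Olig2, Lhfpl3 and Cspg4. Among the 32 genes the median ratio of the other libraries (their median) to replicate 3 was 3.80-fold, and among all genes it was 1.09-fold. The ratio was 45.0 for Mog, 11.2 for Enpp2 and 9.91 for Cldn11, but 1.55 for Mbp and 0.837 for Myrf. With the row Rn45s left out of the totals, 22 of the 32 genes were at least 2-fold low in replicate 3, against 16.2% of all genes.

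Replicate 4 stood apart in the other direction. There 15 of the 32 genes were at least 2-fold above the median of the others, against 26.2% of all genes, and 1 (Tspan2) was at least 2-fold below, against 16.2%. The 15 were Mbp, Cnp, Cryab, Olig1, Fa2h, Mag, Myrf, Gsn, Gpr37, Sox10, Gpr17, Pdgfra, Neu4, Opalin and Cspg4. All 4 scarce precursor genes were among them. Neu4 and Gpr37 were higher still in replicate 2, and Opalin in replicate 1. With TMM scaling of the totals, 13 genes of the list were at least 2-fold above, against 23.8% of all genes. In replicate 1, 6 genes were above (20.8% of all genes) and 5 below (21.9%). In replicate 2, 6 were above (18.8%) and 2 below (26.0%). The counts of replicates 1 and 2 above the others were near those of all genes.

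**Figure D3:**
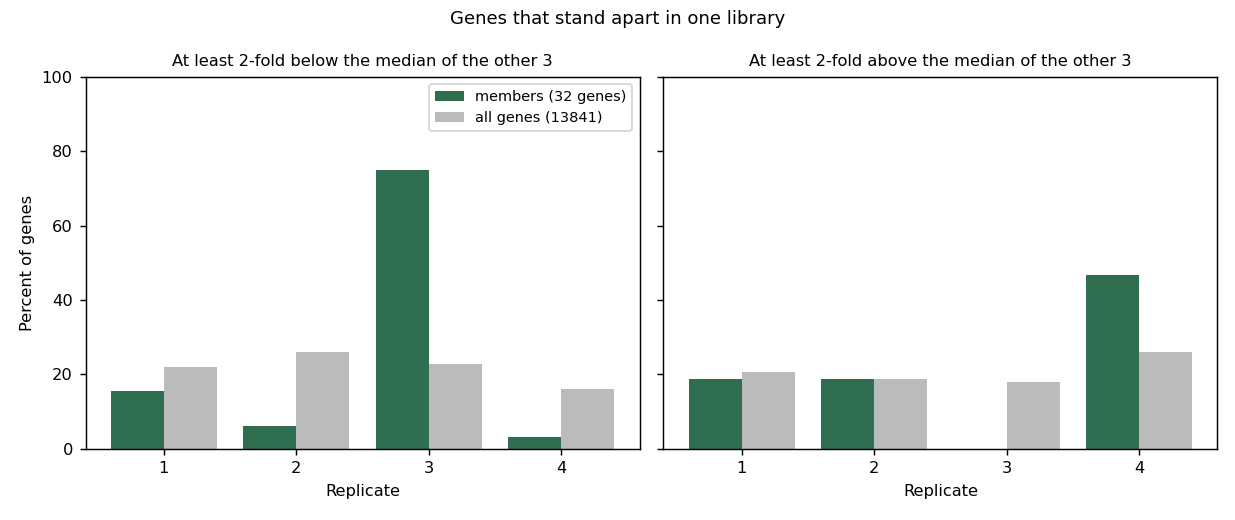
Percent of genes at least 2-fold below (left) or above (right) the median of the other 3 libraries, for each replicate, among the 32 genes of the list with a mean of at least 1 CPM (dark bars) and all 13841 such genes (grey bars). In replicate 3 the list reaches 75.0% below and 0% above, and in replicate 4 it reaches 46.9% above.

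Other genes of oligodendrocytes that are not on the list gave a similar, weaker picture. Of 40 further mature genes, 26 were at 1 CPM or above in each library, against 33.5% of all shared gene rows. Of the 37 with a mean of at least 1 CPM, 20 were at least 2-fold low in replicate 3, against 22.8% of all genes. In the same library 4 were at least 2-fold above the others, against 18.1%. Apod, a lipid carrier, was at 148, 161, 23.2 and 100 CPM. By contrast Tppp, Tppp3 and Stmn4, which bind microtubules or tubulin and are known from neurons too, were not low in replicate 3. They were there at 496, 155 and 96.1 CPM, against 393 to 536, 30.8 to 113 and 58.6 to 86.5 CPM in the other libraries. Whether neuronal RNA accounts for their levels was not tested.

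Of 20 further precursor genes, 14 were at 1 CPM or above in each library, against 33.5% of all shared gene rows. Of 18 with a mean of at least 1 CPM, 10 were at least 2-fold low in replicate 3, against 22.8% of all genes. Ptprz1, a receptor phosphatase that astrocytes also make, led them at 380, 572, 129 and 346 CPM. Ncan was at 86.1, 139, 50.5 and 138 CPM, and Dscam, Megf11 and Sulf2 had means of 132, 102 and 44.4 CPM. Matn4, which is named here after its values were seen, had 213 reads in replicate 4 and 0 in the other 3 libraries.

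The list of 20 cholesterol and fatty acid synthesis genes, which as drawn up also holds the cell cycle inhibitor Cdkn1c, stood near all genes in replicate 3. Of these genes 18 were at 1 CPM or above throughout, and 5 were at least 2-fold low in replicate 3, against 22.8% of all genes. Scd2, a fatty acid desaturase, was at 540, 439, 320 and 859 CPM and Hmgcs1, of the cholesterol pathway, at 172, 116, 165 and 218. Fdft1 and Degs1 had means of 154 and 89.1 CPM. All cells make these lipids, so they are not specific to oligodendrocytes.

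Markers of other cell types were read in the same libraries. The 10 neuronal genes had a median of 6.36, 6.31, 6.08 and 6.51 on the log2 scale per kb, lowest in replicate 3. Their summed level was 25573, 22030, 12106 and 12900 CPM, lower in replicates 3 and 4 than in 1 and 2. Of them 2 were at least 2-fold low in replicate 3, against 22.8% of all genes. Snap25 and Nefm, the neuronal genes with the highest means, were at 8131 and 155 CPM in replicate 3 and at 6936 to 18577 and 554 to 2275 CPM in the others. The 10 astrocyte genes were low in replicate 3 with the oligodendrocyte genes. Of them 7 were at least 2-fold below the other libraries there, against 22.8% of all genes, and none above, against 18.1%. Their median on the same log2 scale was 1.82, 2.32, 1.23 and 2.61. Their summed level in replicate 3 was 271 CPM against 902 to 1638. Slc1a2 was at 184 CPM in replicate 3 and 591 to 1304 in the others, and Aqp4 at 26.9 against 91.3 to 254. The part that glial content or RNA quality of replicate 3 had in the low values was not tested.

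The 10 choroid plexus and ependymal genes summed to 7.14, 13.4, 19.3 and 142 CPM, and were highest in replicate 4. Ttr was at 0, 2.89, 1.41 and 106 CPM and Kcnj13 at 3.45, 5.46, 3.14 and 10.5, while Folr1 and Aqp1 were at 0 counts in all 4. Enpp2 and Trf, which choroid plexus cells make, were not set apart in replicate 4. Microglial genes summed to 36.0, 9.38, 10.4 and 54.6 CPM, with Csf1r at 12.8, 0.579, 1.34 and 26.2, and Trem2 had 1 read in all. Endothelial genes went the other way in replicate 4, with 6 of 7 at least 2-fold low, against 16.2% of all genes. Flt1 was there at 21 CPM against 37.6 to 58.3, and Slc2a1, at 90.0 against 65.2 to 127, was the one not low. The part of these cell types in the values of replicate 4 was not tested. Mural and meningeal genes summed to 110, 86.3, 125 and 132 CPM, with Rgs5 at 65.5 ± 24.4 and Igf2 at 15.7 ± 12.3 (SD, n = 4).

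Genes of Schwann cells, the myelin-forming cells of peripheral nerve, were nearly missing. The 7 genes summed to 1.89, 1.99, 5.97 and 7.57 CPM. Pmp2, a lipid-binding protein of peripheral myelin, had no read in any of the 4 libraries. Ncmap and Cdh19 had the highest means of that list, 1.67 and 1.37 CPM. Beside Mog the other types compared as follows within a library. Mog per kb exceeded the astrocyte gene Aldh1l1, the microglial gene Csf1r and the endothelial gene Cldn5 in 3 of 4 libraries each (log2 ratio 2.33 ± 2.27, 1.98 ± 2.06 and 2.69 ± 3.09), and in replicate 3 it stood at or below all 3 of them. It was below the neuronal gene Rbfox3 in 4 of 4 (-2.65 ± 2.26). Mbp and Slc1a2 did not differ beyond the spread (0.28 ± 0.55).

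**Figure D4:**
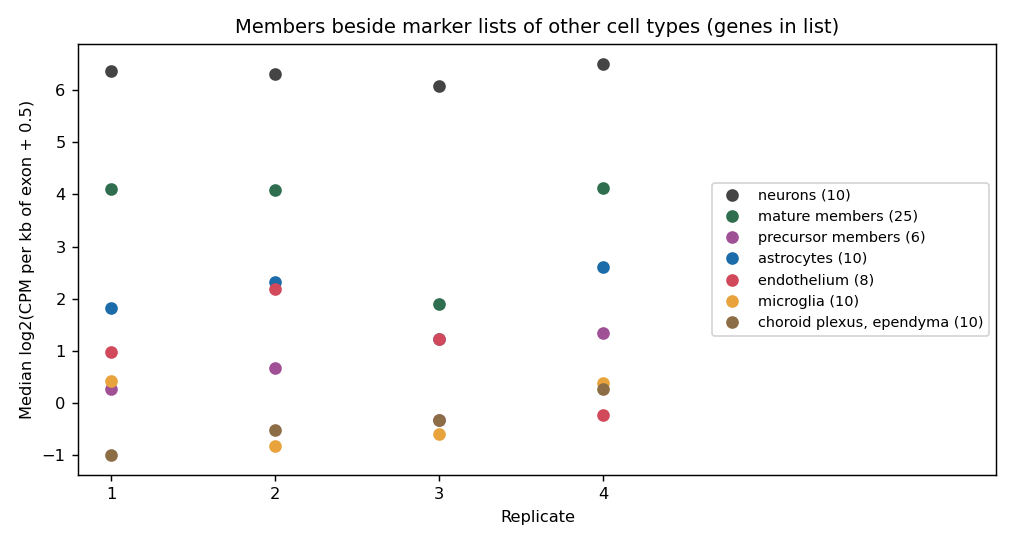
Median level of each list (log2 of CPM per kb of exon plus 0.5) in each library, with 1 point per list. The medians of mature oligodendrocyte, astrocyte and neuronal genes are all lowest in replicate 3, the neuronal one between 6.08 and 6.51 across libraries. The endothelial median is lowest in replicate 4.

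The descriptions number the libraries 1666 and 1667 (replicates 1 and 2) and 2469 and 2470 (replicates 3 and 4). No batch is named, and the pairs are called here by their numbers. In an edgeR quasi-likelihood test over 13905 genes with 2 libraries on each side, 1 of the 32 tested genes of the list passed an adjusted p of 0.05. That gene was Tspan2, which fell from a mean of 247 to 76.4 CPM in the pair of higher numbers (log2 change -1.69, SE 0.36, edgeR adjusted p = 0.0421). Over all genes 0.554% were called lower and 0.712% higher, so that 1 of 32 is a small count to set against them. Nkx6-2 and Ppp1r14a had too few reads to be tested.

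Of the 32 genes 15 had log2 changes above 0 and 17 below 0. An unadjusted edgeR p under 0.05 was found for 4 of them, beside 2334 of the 13905 genes tested. Besides Tspan2, those of the list were Gjc3 (-1.77, SE 0.63), Mal (-1.37, SE 0.50) and Myrf (2.11, SE 0.79). Their edgeR adjusted p were 0.173, 0.179 and 0.193. The median change was -0.68 for the mature genes, -0.24 for the precursor genes and -0.03 for all genes tested. The contrast joins replicate 3, where most of the list was low, with replicate 4, where much of it was high. Without replicate 4 the number of the list's genes called was 8 (Mog, Mobp, Ermn, Vcan, Trf, Enpp2, Gjc3 and Tspan2), all lower in replicate 3 than in the first pair, as were 1.45% of all genes in that fit. Without replicate 3 it was 2 (Mbp and Myrf), both higher in replicate 4, as were 1.23% of all genes, and Tspan2 was not called (edgeR adjusted p = 0.0635). In these fits the lone library is assumed to vary like the pair. Of the other oligodendrocyte and lipid genes, none of 38 mature, 17 precursor and 20 lipid genes tested was called by edgeR. Among the cell type markers the neuronal gene Nefm was lower in the second pair (log2 change -2.56, SE 0.45, edgeR adjusted p = 0.0238).

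**Figure D5:**
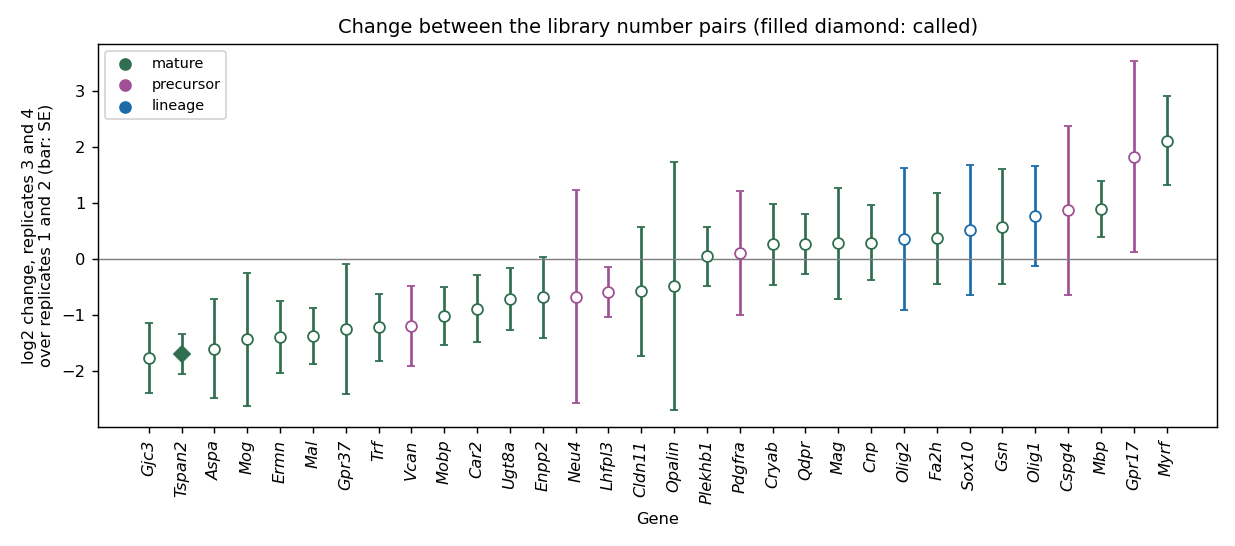
Log2 change of the 32 tested genes in replicates 3 and 4 over replicates 1 and 2, ordered by size and coloured by group. Bars are standard errors worked out from the edgeR log2 change and F statistic (n = 2 libraries on each side). Tspan2, the filled diamond, is the only one that passed the test, at -1.69.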

How the data were processed

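The deposited tables, 1 per library, hold raw counts by gene symbol that the authors did not normalize. STAR 2.0.0e, HTSeq and the build mm10 are named in the submitters' processing notes. Annotation, strand setting and counting options are not given in the sources used here. The 5 HTSeq summary rows and a row named unknown were left out. Reads outside any feature made up 24.0% to 30.1% of a library's total and reads with more than 1 alignment 28.6% to 37.2%. CPM were taken over all gene rows of a library, and rows found in all 4 tables were analysed.

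Levels of different genes were compared as CPM per kb of union exon (GENCODE M21, GRCm38, matched by symbol for 23128 rows and for 95.4% of those detected throughout), with a pseudocount of 0.5 CPM per kb on the log2 scale. The number pairs were compared with the quasi-likelihood test of edgeR 4.0.16 after filterByExpr and TMM scaling, with Benjamini-Hochberg adjustment at 0.05; the script was tested on simulated data. The SE of a log2 change was taken as its size divided by the square root of the F statistic of the edgeR test. DESeq2 1.42.0 was an alternative. Promoters came from RefSeq. Where nothing says that libraries are separate animals, p-values measure only the spread between libraries. The genes, lists and pairs were chosen with earlier results of these data known. Named genes were all 34 members, the 5 highest genes per kb of each further oligodendrocyte list, the 2 highest of each marker list, the genes of the pairs, and any further list gene that edgeR called. Some genes that this rule names are not reported here.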

Additional observations from a re-analysis of the deposited data

Results flagged for a closer look

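In 5 of the 34 genes, 1 library lay so far from the others that its gap to the nearest one exceeded the 95% critical value of Dixon's test for 4 samples. Chance alone flags about 1 in 20 such groups. The share of all genes that this rule flags is not given here, so the 5 are not read as a trait of the list. Mbp (1147 CPM), Myrf (89.5 CPM) and Sox10 (11.0 CPM) were high in replicate 4. Car2 (17.6 CPM) was low in replicate 3. Lhfpl3 (117 CPM) was high in replicate 1.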

How the results depend on the processing

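Under 3 other scalings of the totals, the mean level of a gene moved by at most 1.11-fold (102 values). With 1 library left out it moved by over 1.5 times for 13 of the 34 genes: for Mbp (1.65-fold), Myrf (2.58), Gpr17 (3.20), Olig1 (1.77), Fa2h (1.51) and Nkx6-2 (1.51) without replicate 4, for Ermn (1.68), Opalin (1.76), Gjc3 (1.69) and Ppp1r14a (5.10) without replicate 1, and for Aspa (1.73), Neu4 (1.70) and Gpr37 (2.08) without replicate 2. Myrf to Gpr17 fell under 2 SD with a pseudocount of 0.1 and without replicate 2, 3 or 4. Of 112 values of gene pairs under other settings, 95 kept their direction and side of the threshold, taken as one direction in every library with a mean over 2 SD. The difference between mature and precursor medians was 2.34 with CPM not divided by length and 2.0 with means. It was 2.60 without 9 mature genes that other cell types make too, and 2.50 without Gpr17 and Neu4. Without length, the ratio of Sox10 to Olig2 turned to 0.16, of Mbp to Slc1a2 to -0.35 and of Pdgfra to Dcn to 0.32. With 1 library left out, the ratio of Sox10 to Olig2 lay between -0.57 and 0.20 (highest without replicate 2) and that of Cnp to Lhfpl3 between -0.21 (without replicate 4) and 0.77. The number of pairs past the threshold was 3, and 2 to 7 with 1 library left out (7 without replicate 3). No gene of the list was 3-fold low in replicate 4.

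Between the number pairs, 176 genes were called by edgeR, 875 with no filter on low counts, 1403 by DESeq2, and 389 to 699 when 1 library was left out. Of the list 1 was called, 3 with no filter (Ermn, Gjc3 and Tspan2), 2 by DESeq2 (Gjc3 and Tspan2), and 1 to 8 when 1 library was left out. The genes tested numbered 13905 in the main edgeR fit, 18346 with no filter and 18346 by DESeq2. A larger share of all genes was thus called in the latter settings too, so the list's counts there are not read as a trait of the list. The cause of these changes in the numbers called was not tested. The settings were planned except leaving out libraries for detection and leaving out Vcan and Lhfpl3 (3.58), which were chosen after seeing the data.

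No paired analysis was possible because all 4 libraries belong to 1 group. Depth limits Nkx6-2 and Ppp1r14a, at 0 to 8 reads, and Opalin, Neu4, Mog and Gpr17 in the libraries with 0 to 9 reads.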
